A study of Rattus norvegicus with 16 samples.

Results

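The 6 genes Grm2, Grm3, Grm4, Grm5, Grm7 and Grm8 encode metabotropic glutamate receptors, and each was taken as the transcript cluster (a set of array probes for 1 gene) whose annotated symbol matched exactly. One cluster matched each of them, so that 6 of the 14324 genes named on the array are described here. The arrays came from the hippocampus and cortex of male Sprague-Dawley rats, 15 months old when treatment began. The groups were curcumin, a polyphenol of turmeric given in pelleted chow, for 12 weeks and for 6 weeks, each against control rats on standard chow for the same time. With 2 tissues this gave 8 groups of 2 arrays, 16 arrays in all, and each array held RNA pooled from 3 rats, drawn from a part of each hippocampus or cortex. Both tissues were dissected from the same rats, so hippocampal and cortical arrays shared animals. Rats on the longer diet were also older when killed, so duration of feeding and age at death cannot be told apart.

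Metabotropic glutamate receptors are dimeric receptors of class C, in which glutamate binds a large extracellular domain and activates G proteins. Group I receptors, here Grm5, couple to Gq, sit mostly around the postsynaptic density and take part in long-term depression in the hippocampus. Group II receptors, Grm2 and Grm3, and group III receptors, here Grm4, Grm7 and Grm8, couple to Gi/o proteins and reduce transmitter release from many terminals. Grm3 is also expressed by astrocytes and responds to the peptide N-acetylaspartylglutamate (NAAG), and Grm7 sits in the presynaptic active zone.

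In the RefSeq annotation of build GRCr8, Grm5 lies at chr1:150722711-151297585, Grm2 at chr8:116158810-116171857, Grm3 at chr4:25319218-25600721, Grm4 at chr20:5486024-5574668, Grm7 at chr4:145286714-146169099 and Grm8 at chr4:56771247-57696951. The RefSeq promoter table held 3 of the 6 genes, and their sequences are shown because these were also the 3 genes that passed a test, Grm5 and Grm8 between the tissues and Grm7 between the durations. Each window holds 250 bases before and 50 bases after an annotated transcript start, read 5′ to 3′ on the gene's strand, with motif matches in capitals. The windows are chr1:150733503-150733802 (plus strand) for Grm5, chr4:145286476-145286775 (plus strand) for Grm7 and chr4:57687457-57687756 (minus strand) for Grm8. The Grm7 window covers the start of its gene as given above. Those of Grm5 and Grm8 lie inside their genes, at transcript starts other than the outermost one.
Grm5: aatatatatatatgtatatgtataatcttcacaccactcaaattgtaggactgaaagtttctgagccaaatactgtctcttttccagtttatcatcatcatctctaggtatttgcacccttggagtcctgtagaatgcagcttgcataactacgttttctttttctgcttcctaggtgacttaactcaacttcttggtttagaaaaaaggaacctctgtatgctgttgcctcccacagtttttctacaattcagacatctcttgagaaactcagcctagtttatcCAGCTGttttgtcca
Grm7: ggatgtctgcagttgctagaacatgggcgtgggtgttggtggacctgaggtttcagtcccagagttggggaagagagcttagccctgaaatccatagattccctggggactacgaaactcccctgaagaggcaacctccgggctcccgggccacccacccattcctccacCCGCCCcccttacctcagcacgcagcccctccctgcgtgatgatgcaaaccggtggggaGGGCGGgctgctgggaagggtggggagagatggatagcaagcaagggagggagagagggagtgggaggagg
Grm8: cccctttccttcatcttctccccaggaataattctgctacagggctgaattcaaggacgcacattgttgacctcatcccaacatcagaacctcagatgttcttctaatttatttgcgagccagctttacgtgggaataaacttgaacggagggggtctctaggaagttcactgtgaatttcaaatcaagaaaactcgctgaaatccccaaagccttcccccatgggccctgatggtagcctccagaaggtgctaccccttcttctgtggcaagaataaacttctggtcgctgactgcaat

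The motifs searched on both strands were the cAMP response element TGACGTCA and its shorter form TGACG, the GC box CCGCCC, the TATA box TATAAA and the E-box CAGCTG. The Grm7 window was rich in GC (62.0%, 9 CpG) and held 2 GC boxes, on the plus strand at position -80 and on the minus strand at position -21 from the start. The Grm5 window was AT-rich (37.3% GC, 1 CpG) and held 1 E-box, at position 35 after the start. The Grm8 window (47.3% GC, 6 CpG) held no match. Over 33469 rat promoters of the same length the median was 51.7% GC and 7 CpG. The GC box was present in 33.1% of them, the E-box in 15.1%, TATAAA in 14.2%, TGACG in 21.2% and TGACGTCA in 1.83%.

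All values are log2 signals, normalised by the authors with RMA (robust multi-array averaging), so that a difference of 1 is a 2-fold change. Groups were compared with limma, a linear model with moderated variances, and a gene passed the test where its p-value, adjusted over all 27342 clusters, was under 0.05.

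The tissue labels were checked with marker genes. The cortex pools were less uniform than the hippocampal ones in striatal and olfactory bulb markers, and the hippocampal pools less uniform in choroid plexus markers. Prox1 and C1ql2, markers of dentate granule cells, were higher in hippocampus by 1.57 and 1.84 on the log2 scale (adjusted p = 2.792e-06 and 7.969e-07, limma). The other 2 of the 4 measured dentate markers, Calb1 (-0.19) and Tdo2 (-0.01), did not pass. The level summed over 6 of 7 striatal markers (linear scale) was 621 to 687 on hippocampal arrays and 743 to 3626 on cortical arrays, highest on replicate 1 of the 6-week control cortex, with 2382 on replicate 2 of the 12-week control and 1704 on replicate 2 of the 6-week curcumin cortex. The level summed over 3 of 6 olfactory bulb markers was 252 to 329 in hippocampus and 249 to 396 on 7 of the cortical arrays, but 1044 on replicate 2 of the 6-week control cortex. Over 6 choroid plexus markers it was 377 to 518 on 5 hippocampal arrays, but 4864 on 1 of the 6-week curcumin arrays and 1131 and 5978 on the 6-week control arrays of hippocampus, against 359 to 492 in cortex. The 2 arrays of a group correlated at 0.9899 to 0.9961 across all clusters, lowest in the 6-week control cortex.

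**Figure D1:**
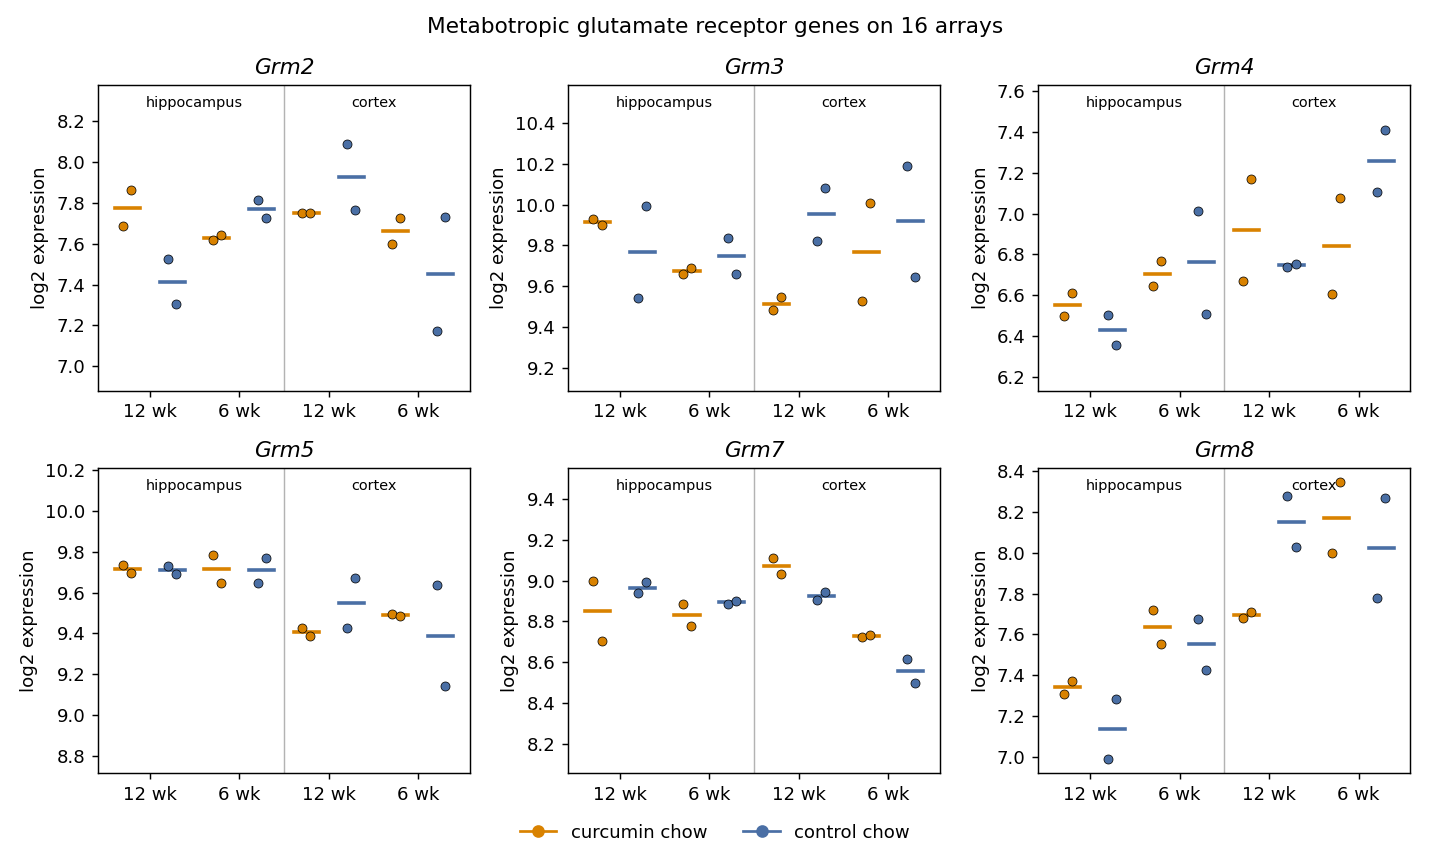
Deposited log2 expression of the 6 receptor genes on each of the 16 arrays, by tissue, weeks of diet (12 and 6) and chow. Points are arrays, bars are means of 2 arrays, and every panel spans the same number of log2 units. Grm8 lay lower in hippocampus than in cortex, Grm5 higher, and the arrays of a cortical group were often far apart.

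The first comparison asked how the receptor genes differed between hippocampus and cortex over all 4 combinations of diet and duration. Grm8 was lower in hippocampus and Grm5 was higher, 1 gene in each direction, and the other 4 did not pass the test. Of all 27342 clusters 9.67% passed, 6.05% higher and 3.63% lower in hippocampus. The hippocampal and cortical arrays did not overlap for 1.61% of clusters and for none of the 6 genes. The median difference of the 6 genes was -0.03, against 0 for all clusters.

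Grm5, the group I member, had a lowest value of 9.65, a median of 9.71 and a highest value of 9.78 on the 8 hippocampal arrays, against 9.14, 9.46 and 9.67 on the 8 cortical arrays. The hippocampal arrays lay close together and the cortical ones spread wider, and their ranges overlapped because 1 cortical array reached into the hippocampal range. The mean was 9.71 ± 0.05 in hippocampus and 9.46 ± 0.16 in cortex (SD, n = 8 each), a difference of 0.26 (SE 0.07, 95% interval 0.11 to 0.40, adjusted p = 0.03282, limma). Within each of the 4 combinations of diet and duration the hippocampal mean was the higher one. The differences were 0.31 and 0.16 at 12 weeks on curcumin and on control chow, and 0.23 and 0.32 at 6 weeks. None of these passed alone (adjusted p = 0.2254 to 0.8495), where 6.65% and 1.61% of all clusters did at 12 weeks on curcumin and on control chow and 0.768% and 1.96% at 6 weeks. The pooled call was lost without any 1 of 12 of the 16 arrays (adjusted p up to 0.0846, without replicate 2 of the 6-week control hippocampus) and under quantile normalisation over all arrays (0.21, adjusted p = 0.06813), and it was kept without either array of the 6-week control cortex (adjusted p = 0.001364 and 0.02393).

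Grm8, a group III receptor of presynaptic terminals, gave the widest tissue difference of the 6 genes. On hippocampal arrays it had a lowest value of 6.99, a median of 7.40 and a highest value of 7.72, against 7.68, 8.01 and 8.35 on cortical arrays. The ranges met only at their ends, where the highest hippocampal array, of 6 weeks of curcumin, lay just above the cortical arrays of 12 weeks of curcumin. The mean was 7.42 ± 0.24 in hippocampus and 8.01 ± 0.27 in cortex (SD, n = 8 each), a difference of -0.60 (SE 0.09, 95% interval -0.78 to -0.41), or 0.662-fold (adjusted p = 0.001168, limma).

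The Grm8 difference held its direction in every combination of diet and duration. It was -0.35 and -1.02 at 12 weeks on curcumin and on control chow, and -0.54 and -0.47 at 6 weeks. Of these, the 12-week control groups passed alone (adjusted p = 0.01488). The call was kept without each of the 16 arrays (-0.66 to -0.53, adjusted p up to 0.004869) and without both 6-week control groups (-0.64, adjusted p = 0.002436). It did not pass among the 6-week groups alone (-0.51, adjusted p = 0.05058) or among the curcumin groups alone (-0.44, adjusted p = 0.05699).

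Grm4, the group III receptor best known from cerebellar granule cell terminals, came near the threshold in the same direction as Grm8. It had a lowest value of 6.35, a median of 6.56 and a highest value of 7.01 in hippocampus, against 6.61, 6.91 and 7.41 in cortex, and these ranges overlapped widely. The difference was -0.33 (SE 0.10, adjusted p = 0.06783), and it passed once the dimmest 25% of clusters were left out (adjusted p = 0.04056) or with a trended and robust variance (adjusted p = 0.04741). The difference was negative in all 4 combinations of diet and duration. It was -0.37 and -0.32 at 12 weeks on curcumin and on control chow, and -0.14 and -0.50 at 6 weeks. None of these passed alone.

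Grm7, Grm2 and Grm3 gave no tissue difference beyond their spread. Grm7 differed by 0.06 (SE 0.04, 95% interval -0.03 to 0.16), Grm2 by -0.05 (SE 0.08, -0.23 to 0.13) and Grm3 by -0.01 (SE 0.10, -0.23 to 0.21). Behind the small mean of Grm2 stood opposite differences in the control groups, -0.51 at 12 weeks and 0.32 at 6 weeks, and neither passed (adjusted p = 0.1937 and 0.4649). For Grm7 the hippocampal mean was lower than the cortical one at 12 weeks of curcumin (-0.22). It was higher at 6 weeks on curcumin (0.10) and control chow (0.34), again without passing (adjusted p = 0.1793, 0.9932 and 0.09174).

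**Figure D2:**
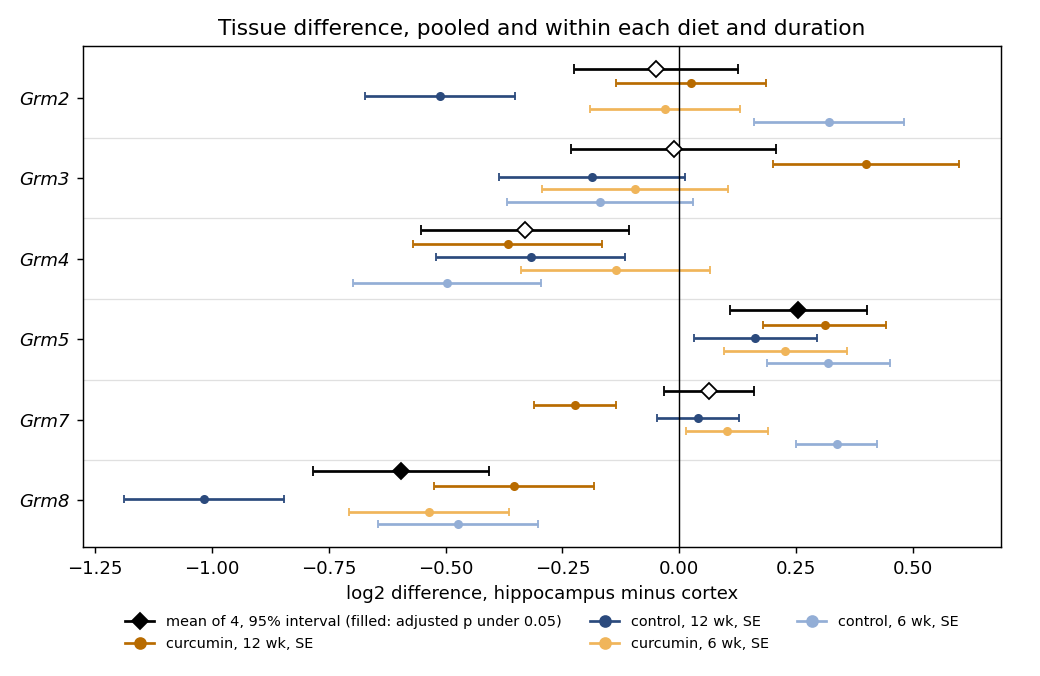
Hippocampus minus cortex in log2 units for the 6 receptor genes. Diamonds are means over 4 combinations of diet and duration with 95% intervals (filled where the adjusted p was under 0.05), and circles are single combinations with SE. The Grm8 circles all lay below 0 and the Grm5 circles all above 0, while those of Grm2, Grm3 and Grm7 lay on both sides.

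Several cell type lists moved with the tissue difference. All 5 measured markers of excitatory projection neurons were higher in hippocampus, where their summed level was 6251 to 7344 against 3663 to 6486 in cortex. All 7 astrocyte markers lay higher in hippocampus and 4 passed (sums 7528 to 8582 in hippocampus, 5924 to 7368 in cortex). All 8 markers of GABA interneurons lay lower and 3 passed, among them Npy (-0.63, adjusted p = 0.0004801). Their sums were 2775 to 3299 in hippocampus and 3014 to 4573 in cortex. All 6 striatal markers lay lower in hippocampus (median -0.94), and Penk was the 1 that passed (-1.36, adjusted p = 0.009768). All 3 thalamus markers lay lower too (sums 301 to 409 in hippocampus, 306 to 843 in cortex). Of these, Prkcd passed (-0.35, adjusted p = 0.01084) and kept its call without each of the 16 arrays (adjusted p up to 0.03114). Without both 6-week control groups, the calls of Slc17a7 (0.13, adjusted p = 0.149), Camk2a (0.12, adjusted p = 0.2609), Fezf2 (0.35, adjusted p = 0.07365), Gad1 (-0.08, adjusted p = 0.7229), Gad2 (-0.16, adjusted p = 0.4079) and Penk (-1.09, adjusted p = 0.06356) were lost. The astrocyte markers Gfap and Aqp4 did not pass on control chow alone (0.26 and 0.02, adjusted p = 0.5554 and 0.962), and leaving out 1 array ended the call of Aqp4 in 13, Gad1 in 11, Gad2 in 10 and Camk2a in 4 of 16 cases. The lowest log2 value of a marker on these lists was 5.58, of a striatal marker in cortex, where the lowest value of any cluster was 4.33. The part of these cell types in the receptor differences was not tested. In pooled tissue, fewer cells of a type and less RNA per cell cannot be told apart.

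Among the genes that act with group I receptors, 6 of 18 were higher and 2 lower in hippocampus, against 6.05% and 3.63% of all clusters. Homer3, a scaffold that ties group I receptors to calcium stores, was higher by 0.68 (SE 0.04, adjusted p = 3.349e-06). Ncdn (neurochondrin, a binding partner of Grm5) was higher by 0.48 (adjusted p = 5.283e-06), and so was Dagla, which makes the endocannabinoid 2-arachidonoylglycerol after Gq signalling, by 0.52 (adjusted p = 0.0002153). Rgs4, which shortens Gq and Gi/o signalling, was lower by 0.82 on the log2 scale (adjusted p = 0.0005173). The median of the 18 genes was 0.04, against 0 for all clusters. All 4 calls were kept without each of the 16 arrays.

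Among 18 partners of group II and III receptors 2 were higher in hippocampus and none lower. These were the potassium channel subunit Kcnj6 (0.61, adjusted p = 0.0001835) and the Gi/o regulator Rgs14, known from hippocampal area CA2 (0.52, adjusted p = 0.00232). Of 10 genes of glutamate and NAAG handling 4 were higher, the transporters Slc1a1 (0.46), Slc17a7 (0.35), Slc1a2 (0.17) and Slc17a8 (0.40; adjusted p = 2.688e-05, 0.0004548, 0.003962 and 0.04587). Slc17a7 also stands on the excitatory neuron list and Slc1a2 on the astrocyte list. Slc17a8 lost its call without any 1 of 12 arrays (adjusted p up to 0.1131). Slc17a7 did not pass in the 12-week groups (0.08, adjusted p = 0.539), in the curcumin groups (0.10, adjusted p = 0.4846) or without the 6-week controls, as given above, and Slc1a2 did not in the 12-week groups (0.13, adjusted p = 0.104). None of 5 other class C receptors passed, with Gabbr1 at 0.10 (adjusted p = 0.06403) and Gprc5b at 0.14 (adjusted p = 0.1225).

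The second set of comparisons asked whether curcumin changed the receptor genes in either tissue after either duration. None of the 6 genes passed the test in any of the 4 comparisons, and none reached the study's fold rule (at least 1.5-fold or at most 0.66-fold, with no test), which 0.230% of all clusters met in hippocampus at 12 weeks, 0.121% in hippocampus at 6 weeks, 0.827% in cortex at 12 weeks and 1.25% in cortex at 6 weeks. In the limma fit 0.00366% of all clusters passed in hippocampus at 12 weeks, 0% in hippocampus at 6 weeks, 3.24% in cortex at 12 weeks and 0.106% in cortex at 6 weeks. At an unadjusted p under 0.05, 1 receptor gene stood out in hippocampus at 12 weeks and 1 in cortex at 12 weeks, where 5.11% and 15.1% of all clusters did, and none at 6 weeks, where 2.03% of clusters did in hippocampus and 12.0% in cortex.

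In hippocampus at 12 weeks that gene was Grm2, the group II autoreceptor. It had 7.69 and 7.86 on the curcumin arrays, against 7.52 and 7.31 on the control arrays. Both curcumin arrays lay above both control arrays, by a gap no wider than that between the arrays of either group. The difference was 0.36 (SE 0.16, 95% interval 0.01 to 0.71, adjusted p = 0.9729, limma).

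In cortex at 12 weeks it was Grm8, which had 7.68 and 7.71 on the curcumin arrays, against 8.28 and 8.03 on the control arrays. The curcumin arrays lay close together, below both controls. The difference was -0.46 (SE 0.17, 95% interval -0.84 to -0.08, adjusted p = 0.2071). Grm3 in the same comparison had 9.48 and 9.55 with curcumin against 9.82 and 10.08 with control chow, a difference of -0.44 (SE 0.20, adjusted p = 0.3323). No cell type marker passed there. All 7 astrocyte markers lay lower (median -0.20, sums 5924 and 6939 with curcumin against 6993 and 7368 with control chow), as did all 7 oligodendrocyte (median -0.16, 3903 and 5172 against 4246 and 6223), all 4 endothelial (median -0.18, 892 and 1078 against 1173 and 1132) and all 6 striatal markers (median -0.55, 743 and 1146 against 754 and 2382). Their part in the values of Grm3 and Grm8 was not tested.

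The arrays of the diets were apart for 2 of the 6 genes in hippocampus at 12 weeks (Grm2 and Grm8, both above), where they were for 27.4% of all clusters. They were apart for 2 in hippocampus at 6 weeks (Grm2 and Grm7, both below), against 35.0% of clusters, and for 2 in cortex at 6 weeks (Grm7 above, Grm4 below), against 36.3%. In cortex at 12 weeks they were apart for 4 genes, with Grm7 above and Grm2, Grm3 and Grm8 below, against 44.3% of clusters. With 2 arrays a group such separation was thus common throughout the array.

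The widest diet difference in cortex at 6 weeks was that of Grm4, with 6.61 and 7.08 on curcumin arrays against 7.11 and 7.41 on control arrays (-0.42, SE 0.20, 95% interval -0.86 to 0.03, adjusted p = 0.4495). The striatal sums were 770 and 1704 with curcumin against 3626 and 875 with control chow, and the olfactory bulb sums 302 and 269 against 396 and 1044. Grm7 in that comparison had 8.72 and 8.73 with curcumin against 8.62 and 8.50 with control chow, a difference of 0.17 (SE 0.09, 95% interval -0.02 to 0.36, adjusted p = 0.4756). All 5 excitatory neuron markers lay higher there (1 passed, median 0.80, sums 5616 and 5818 with curcumin against 3965 and 3663) and all 7 oligodendrocyte markers lower (none passed, median -0.81, sums 2995 and 6123 against 8492 and 6347). Their part in the receptor values was not tested. In hippocampus at 6 weeks every receptor gene lay between -0.14 (Grm2) and 0.09 (Grm8).

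Grm5 gave the smallest hippocampal diet differences, 0.01 at 12 weeks (95% interval -0.28 to 0.30) and 0.01 at 6 weeks (-0.28 to 0.30). In cortex it differed by -0.14 at 12 weeks (-0.43 to 0.15) and by 0.10 at 6 weeks (-0.19 to 0.39). These intervals leave room for changes of up to 0.28 log2 units downward and 0.30 upward in hippocampus, so an absence of change was not shown.

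**Figure D3:**
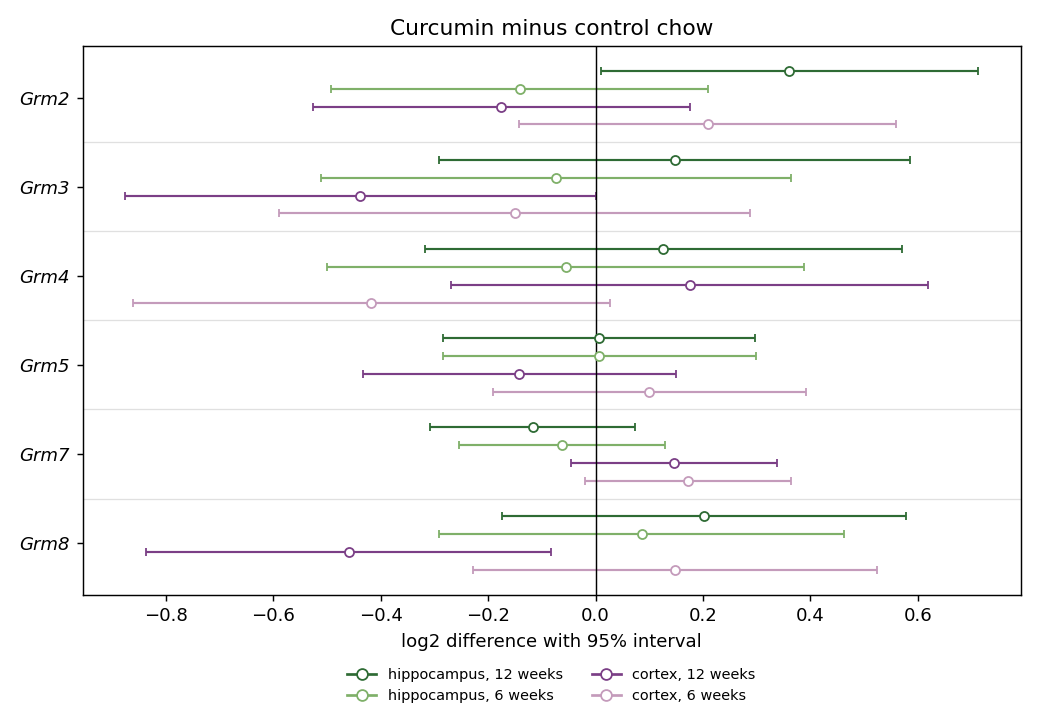
Curcumin minus control chow in log2 units, with 95% intervals, for the 6 receptor genes in each tissue after 12 and 6 weeks. All symbols are open because no adjusted p was under 0.05. The intervals of Grm2 in hippocampus and of Grm8 in cortex, both at 12 weeks, did not reach 0.

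Partners of the receptors did pass in cortex at 12 weeks of curcumin, where 3.24% of all clusters passed. Of 18 group I partners 3 were higher and none lower, namely the postsynaptic scaffolds Shank1 (0.57, adjusted p = 0.007323) and Shank2 (0.49, adjusted p = 0.00845) and Ncdn (0.37, adjusted p = 0.01218), with a list median of 0.16 against 0.00 for all clusters. Of 18 partners of groups II and III 3 were higher and 1 lower. The higher ones were the calcium channel subunit Cacna1b (0.52, adjusted p = 0.02515), the Go subunit Gnao1 (0.42, adjusted p = 0.03121) and Elfn1, a postsynaptic protein that binds Grm7 across the synapse (0.30, adjusted p = 0.04272). Gnb1, a G protein beta subunit, was lower by 0.35 on the log2 scale (adjusted p = 0.009909).

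Of 10 genes of glutamate and NAAG handling 1 was lower in that comparison, glutamate dehydrogenase Glud1 (-0.37, adjusted p = 0.03865). Each of these 8 calls was lost without replicate 1 of the 12-week control cortex (adjusted p = 0.05038 to 0.3133), and none was kept throughout when the arrays were left out in turn. In cortex at 6 weeks Slc17a7, the vesicular glutamate transporter of cortical excitatory neurons, was higher by 0.81 (adjusted p = 0.0368), with 13 of 16 omissions ending the call (adjusted p up to 0.1781). No partner passed in hippocampus at either time. Gabbr2, a subunit of the GABA-B receptor, was at 0.71 in cortex at 6 weeks without passing (adjusted p = 0.07069), and none of the 5 other class C receptors passed in any of these comparisons.

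The third set of comparisons set 12 against 6 weeks on control chow. In cortex 1 receptor gene was higher at 12 weeks, Grm7, and in hippocampus none passed. Of all clusters 8.85% passed in cortex (5.42% higher) and 4.27% in hippocampus. At an unadjusted p under 0.05, limma gave 3 receptor genes in cortex, Grm2, Grm4 and Grm7, where 23.4% of clusters did, and 2 in hippocampus, Grm2 and Grm8, where 17.5% did.

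Grm7 had 8.91 and 8.95 on the 12-week control arrays of cortex, against 8.62 and 8.50 on the 6-week control arrays. The durations were far apart and the arrays of each close together. The difference was 0.37 (SE 0.09, 95% interval 0.18 to 0.56, adjusted p = 0.02513, limma). It was of like size on curcumin chow, where Grm7 had 9.11 and 9.03 at 12 weeks against 8.72 and 8.73 at 6 weeks (0.34, adjusted p = 0.06016), and over both diets it was 0.36 (adjusted p = 0.00538). The call was lost without replicate 2 of the 6-week control cortex (0.31, adjusted p = 0.1651), without replicate 1 or 2 of the 12-week control cortex (adjusted p = 0.1158 and 0.1169) and when only the 8 cortical arrays were fitted (adjusted p = 0.05093).

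The cortical controls also differed in cell type markers between the durations, beside which the Grm7 value stands. Of 5 markers of excitatory projection neurons 4 were higher at 12 weeks (median 0.80), with summed levels of 5802 and 5486 at 12 weeks against 3965 and 3663 at 6 weeks. All 7 oligodendrocyte markers lay lower (median -0.67) without passing, with summed levels of 4246 and 6223 against 8492 and 6347. Of 3 olfactory bulb markers Pbx3 was lower (-1.64, adjusted p = 0.0113), with sums of 262 and 285 against 396 and 1044, and of 3 thalamus markers Lef1 was lower (-0.60, adjusted p = 0.02206), with sums of 367 and 306 against 430 and 843. The 6 striatal markers summed to 754 and 2382 at 12 weeks against 3626 and 875 at 6 weeks. Of 8 markers of GABA interneurons Sst was higher (0.55) and Gad1 (-0.69) and Slc32a1 (-0.81) were lower, with sums of 3438 and 3694 against 4239 and 4573, and of 4 dentate markers Prox1 was lower (-0.83). On curcumin chow the 4 excitatory markers that passed here differed by 0.29 (Slc17a7, adjusted p = 0.1051), -0.19 (Neurod6), -0.43 (Fezf2) and -0.02 (Camk2a) between the durations, none of which passed. The part of the cell types in the Grm7 difference was not tested.

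Grm2 and Grm4 had wide differences in cortex that did not pass. Grm2 had 8.09 and 7.77 at 12 weeks, against 7.17 and 7.73 at 6 weeks. Replicate 1 of the 6-week controls was the lowest of all 16 arrays. The difference was 0.48 (SE 0.16, adjusted p = 0.09233), and it was 0.76 (adjusted p = 0.0301) without replicate 2 of the 6-week control cortex but 0.20, not passing, without replicate 1. Grm5 differed by 0.16 (adjusted p = 0.5428), with 0.41 (adjusted p = 0.03676) without replicate 1 of the same group and -0.09 without replicate 2. Grm4 had 6.74 and 6.75 at 12 weeks against 7.11 and 7.41 at 6 weeks (-0.51, SE 0.20, adjusted p = 0.152), and on curcumin chow the difference was 0.08 (adjusted p = 0.9307).

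In hippocampus Grm8 had 6.99 and 7.29 on 12-week control arrays, against 7.68 and 7.43 on 6-week control arrays. The later arrays held the lowest values of the gene in the data set. The difference was -0.41 (SE 0.17, adjusted p = 0.2334). Grm2 had 7.52 and 7.31 against 7.81 and 7.73, a difference of -0.36 (SE 0.16, adjusted p = 0.2768), while on curcumin chow it was 0.15 (adjusted p = 0.7792). Beside these values, all 6 choroid plexus markers lay lower (none passed, median -1.42, sums 399 and 406 at 12 weeks against 1131 and 5978 at 6 weeks) and all 8 markers of GABA interneurons higher (none passed, median 0.15, 3299 and 3191 against 2823 and 2793). Of 6 microglia markers Tmem119 was higher (0.47, adjusted p = 0.02443, sums 992 and 1187 against 940 and 1003), and of 3 thalamus markers Prkcd was lower (-0.71, adjusted p = 0.0242, sums 301 and 305 against 409 and 359). Their part in the receptor values was not tested. Grm3, Grm5 and Grm7 differed by 0.02, 0.00 and 0.07, and the arrays of the durations were apart for 4 of 6 genes in hippocampus and 3 of 6 in cortex, against 47.3% and 54.9% of all clusters.

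**Figure D4:**
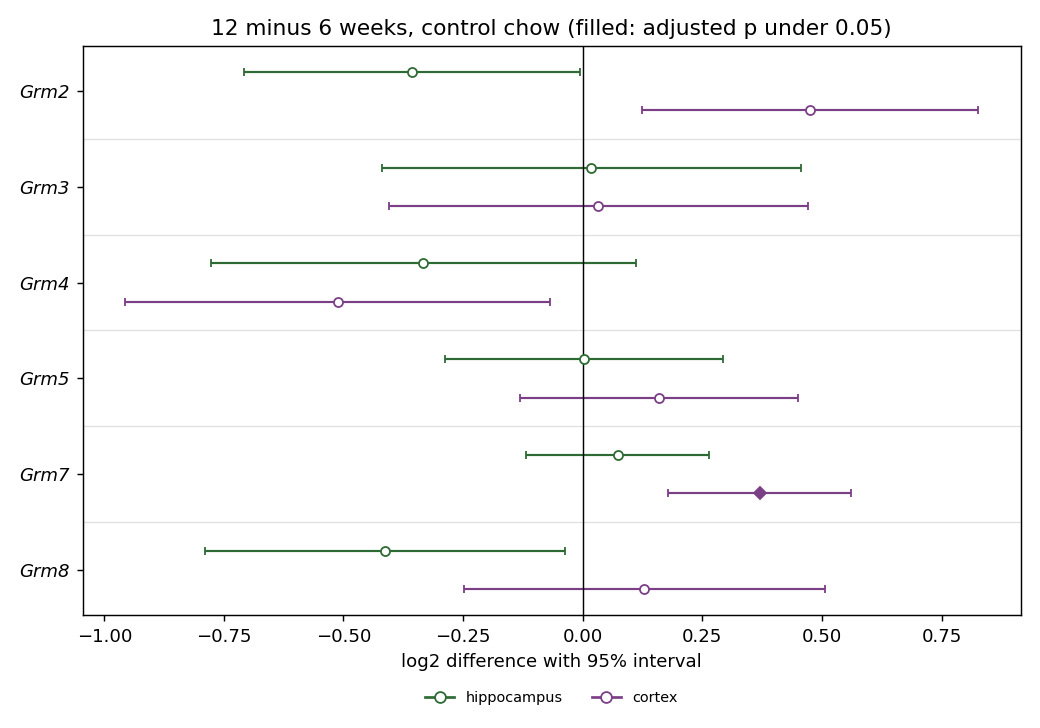
Rats on control chow for 12 minus 6 weeks, in log2 units with 95% intervals, for the 6 receptor genes in hippocampus and cortex. The filled symbol is Grm7 in cortex at 0.37, the only adjusted p under 0.05. Grm2 lay below 0 in hippocampus and above 0 in cortex.

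Receptor partners that passed between the durations in cortex were Slc17a7 (0.93, adjusted p = 0.0005547), the potassium channel subunit Kcnj9 (0.70, adjusted p = 0.008318), the Gi subunit Gnai1 (0.47, adjusted p = 0.0157) and the G protein gamma subunit Gng3 (0.47, adjusted p = 0.01965), all higher, and the scaffold Grip1, which was lower (-0.53, adjusted p = 0.01417). These were 3 higher and 1 lower of 18 partners of groups II and III and 1 higher of 10 genes of glutamate and NAAG handling, and no group I partner passed. Of all clusters 8.85% passed in cortex and 4.27% in hippocampus. In hippocampus 1 of 18 group I partners was lower, Shank1 (-0.48, adjusted p = 0.0144). Of the partners of groups II and III Gnai1 was higher (0.48, adjusted p = 0.02343) and Gnao1 lower (-0.40, adjusted p = 0.03289). Slc17a7 in cortex kept its call without each of the 16 arrays, whereas the other 7 lost it without at least 2 of them, replicate 1 of the 12-week control group of that tissue among them for all but Shank1 (adjusted p up to 0.1748). On curcumin chow the cortical differences did not pass and were smaller, at 0.29 for Slc17a7 (adjusted p = 0.1051), 0.18 for Kcnj9, 0.07 for Gnai1, 0.07 for Gng3 and -0.14 for Grip1 (adjusted p = 0.5906, 0.8525, 0.8672 and 0.6461 for these 4). In hippocampus Gnai1 was at 0.18 and Gnao1 at -0.32 there (adjusted p = 0.4493 and 0.1036).

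Whether the diet difference itself changed with duration or tissue was tested as a difference of differences, and no receptor gene passed in any of the 4 tests. Of all clusters 0.190% passed for the tissue difference at 12 weeks, 0% for that at 6 weeks, 1.47% for the change with duration in cortex and 0% for that in hippocampus. At an unadjusted p under 0.05 these tests gave 2, 0, 1 and 1 of the 6 genes in limma, against 10.6%, 5.48%, 14.7% and 3.43% of clusters. The widest value was that of Grm8, whose curcumin difference at 12 weeks was 0.20 in hippocampus and -0.46 in cortex, 0.66 apart (SE 0.24, 95% interval 0.13 to 1.19, adjusted p = 0.3287). Grm2 differed between the tissues in the same direction at 12 weeks, by 0.54 (SE 0.23, adjusted p = 0.4229). For cortical Grm8 the curcumin difference was -0.46 at 12 weeks and 0.15 at 6 weeks, a change of -0.61 (SE 0.24, adjusted p = 0.2599). These tests share the 12-week control arrays of cortex or hippocampus with the diet and duration comparisons above.

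Ordered by their group means, the receptor genes spanned 1.03 log2 units for Grm8, 0.83 for Grm4, 0.52 for Grm7, 0.51 for Grm2, 0.44 for Grm3 and 0.33 for Grm5. For Grm5 the 4 hippocampal groups ranked first, with means of 9.71 to 9.72, and the 4 cortical groups followed at 9.39 to 9.55. Grm8 showed the mirror order, with 4 cortical groups at 7.69 to 8.17 above 4 hippocampal groups at 7.14 to 7.64. Within these orders, and in those of the other 4 genes, no step between neighbouring groups exceeded its 95% interval (0.19 for Grm7 to 0.44 for Grm4). Sorting by the mean keeps such steps small, so they cannot show whether groups further apart in the order differed.

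Across the 16 arrays, which share tissue, diet and pools, Grm4 and Grm8 ran together (Pearson r = 0.64) and both ran opposite to Grm5 (r = -0.70 and -0.68). Within hippocampus these values were 0.68, -0.54 and -0.13, and within cortex 0.18, -0.51 and -0.28 (8 arrays each). The relation of Grm5 to Grm8 was thus weaker within each tissue than over both. The genes most like each receptor over the arrays were Kcnab1 (r = 0.93) and Lmo7 (0.91) for Grm5, Adcy2 (0.78) and Otx1 (0.74) for Grm2, and Snapc2 (0.92) and Ankrd40 (0.88) for Grm3. For group III they were Rpl11 (0.89) and St3gal1 (0.88) for Grm4, Fam229b (0.92) and Ogfrl1 (0.89) for Grm7, and Tnfrsf11b and Lhfpl6 (0.91 each) for Grm8. They were picked as the highest of all named clusters and are given as a description. Within hippocampus r was 0.55 for Kcnab1, 0.41 for Lmo7, 0.58 for Otx1 and 0.56 for Ogfrl1, and 0.66 to 0.91 for the others. Within cortex it was 0.76 to 0.99 for all of them.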

How the data were processed

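The deposited values were log2 signals of 27342 transcript clusters on 16 Affymetrix arrays, which the authors normalised by robust multi-array averaging (RMA, in Affymetrix Expression Console per the labels), with no missing value and array medians of 6.35 to 6.44. Each array was hybridised with RNA pooled from 3 rats. The labels call the 2 arrays of a group biological replicates, whereas the design text describes duplicate arrays of each RNA sample, so the p-values measure the spread between arrays, which may be technical. The methods name a rat exon array while the cluster identifiers matched the platform annotation of a rat gene-level array, and this was not settled. Gene symbols came from that annotation, which gave 15097 clusters 1 symbol, 323 several and 11922 none.

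A group-means model was fitted to all clusters and arrays with limma 3.58.1 in R 4.3.3 (8 residual and 3.12 prior degrees of freedom). It treated the arrays of the 2 tissues as independent, although they shared rats. Benjamini-Hochberg adjustment ran over all clusters within each of 11 comparisons, with a threshold of 0.05, and intervals were 95% intervals of that fit. No fold change or p-value of the authors was used. The script was tested on simulated data. Alternatives were another normalisation, removal of the dimmest 25% of clusters, a trended robust variance, array weights, the replicate number or the pool as a block (statmod 1.5.0), single-tissue fits, the methods' fold rule (at least 1.5 or at most 0.66, no test) and omission of each array. Subsets of the groups in the tissue comparison and other diets in the duration comparison were added after seeing the data.

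The 6 receptor genes and the 17 partner and marker lists (147 genes, 119 with a named cluster) were chosen with earlier results of these data known. Besides the receptor genes, up to 4 called genes per list and comparison were named, or up to 2 where none was called. Sequences were read with Python 3.11.15 from RefSeq tables of GRCr8, and plots were drawn with matplotlib 3.10.9. Precision is limited by the number of arrays.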

Additional observations from a re-analysis of the deposited data

Results flagged for a closer look

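No receptor gene differed between tissues or durations in its response to curcumin by a test of that difference. In cortex 4 other listed genes did, in the difference between the curcumin responses at 12 and at 6 weeks (limma, adjusted over all clusters). Gnb1, a G protein beta subunit, changed by -0.434 (adjusted p = 0.03325), with a response of -0.351 at 12 weeks and 0.083 at 6 weeks. Slc17a7, the vesicular glutamate transporter, changed by -0.635 (adjusted p = 0.03558), with 0.174 at 12 weeks and 0.809 at 6 weeks. Neurod6 and Fezf2, markers of excitatory projection neurons, changed by -1.324 and -1.233 (adjusted p = 0.04228 and 0.04481), with responses of -0.467 and -0.428 at 12 weeks and 0.857 and 0.804 at 6 weeks. Their calls were lost without any 1 of 9, 10, 12 and 12 of the 16 arrays in that order of genes, and the adjusted p reached 0.1514, 0.154, 0.1818 and 0.1883 without replicate 1 of the 12-week control cortex. Groups of 2 arrays are too small to test a single array as an outlier.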

How the results depend on the processing

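Each group had 2 pooled arrays, and the fit had 8 residual degrees of freedom in all. Among the settings that kept all arrays or changed the groups, 988 gene-level values kept direction and side of the threshold, 115 lost a call, 2 gained one and 29 changed sign. When 1 array was left out, 1656 kept both, 221 lost a call, 5 gained one and 54 changed sign. The cause was not tested.

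The replicate numbers did not pair the arrays (correlations of deviations from -0.429 to 0.494). With the replicate block Grm8 and Grm5 between tissues and Grm7 between durations kept their calls (adjusted p = 0.001998, 0.04205 and 0.02413), while clusters called numbered 1 for curcumin in cortex at 6 weeks (29 without it) and 17 for the tissue difference in the curcumin response at 12 weeks (52 without it).

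Between hippocampus and cortex 2 receptor genes passed. The number was 1 with quantile normalisation over all arrays, control chow groups only, 12-week groups only or no 6-week control group, and 0 with 6-week groups only or curcumin groups only. Clusters called numbered 2645, against 1151 in control groups, 823 in 6-week groups and 1612 in curcumin groups. Grm2 (-0.05) was 0.144 in 6-week groups. Grm3 (-0.012) was 0.107 in 12-week groups, 0.153 in curcumin groups and 0.04 without the 6-week controls, and Grm7 (0.064) was -0.091, -0.06 and -0.027 there.

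For curcumin, clusters called in cortex at 6 weeks (29) were 49 without the dimmest 25%, 104 with a trended robust variance, 0 with array weights, 0 on the 8 cortical arrays alone and 341 by the fold rule. In hippocampus at 12 weeks (1) they were 3 without the dimmest 25% and with either quantile normalisation, 4 with the trended robust variance, 0 with array weights, 0 on 8 arrays and 63 by the fold rule. In cortex at 12 weeks (885) they were 22 on 8 arrays and 226 by the fold rule, and in hippocampus at 6 weeks (0) 33 by the fold rule.

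Between 12 and 6 weeks in hippocampus, Grm3 (0.018) and Grm5 (0.003) were -0.018 and -0.041 with quantile normalisation over all arrays and -0.019 and -0.041 within tissues, and on curcumin chow Grm2 (-0.357) was 0.146 and Prkcd (-0.706) 0.108. Clusters called (1167) were 620 on curcumin chow, 2962 over both diets and 365 by the fold rule. In cortex the single receptor call (Grm7) became 0 on 8 arrays, on curcumin chow and by the fold rule, with 522, 887 and 841 clusters called there against 2421. Grm3 (0.033) was -0.037 and -0.04 under the quantile normalisations, -0.254 on curcumin chow and -0.11 over both diets. On curcumin chow Grm4 (-0.512) was 0.08, Grm5 (0.159) -0.083 and Grm8 (0.129) -0.479 (-0.175 over both diets), while Neurod6 (1.138), Fezf2 (0.799), Camk2a (0.407) and Pbx3 (-1.639) were -0.186, -0.434, -0.021 and 0.026.

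For the change of the curcumin response with duration, the 2 quantile normalisations gave Grm5 in hippocampus 0.028 and 0.028 (-0.002 as deposited) and Grm7 in cortex 0.037 and 0.035 (-0.027). Clusters called in cortex (402) were 636 and 604 with these, 220 with array weights and 1 on 8 arrays. For the tissue difference at 12 weeks (52) they were 107 and 101, 23 without the dimmest 25% and 19 with array weights.

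Leaving out each array in turn gave 1 to 3 receptor genes called between tissues and 0 to 2 between durations in cortex. Without replicate 1 of the 6-week control hippocampus, the 6-week curcumin cortex or the 12-week curcumin cortex, Grm4 passed between tissues (adjusted p = 0.03349, 0.03339 and 0.03127). Clusters called ranged over 408 to 2571 and 49 to 1212 between durations in cortex and hippocampus, 26 to 967 and 0 to 758 for curcumin in cortex at 12 and 6 weeks, 0 to 4 and 0 to 2 for curcumin in hippocampus at 12 and 6 weeks, 8 to 1041 and 0 to 2 for the change with duration in cortex and hippocampus, and 5 to 66 and 0 to 140 for the tissue difference at 12 and 6 weeks. Some differences that had not passed changed sign. Grm2 between durations in cortex kept its sign, over 0.195 to 0.755. Between tissues Grm2 ranged over -0.12 to 0.02 and Grm3 over -0.081 to 0.056. Between durations in cortex Grm3 ranged over -0.24 to 0.307, Grm5 over -0.088 to 0.406 (passing at the highest value, adjusted p = 0.03676, without replicate 1 of the 6-week controls) and Grm8 over -0.117 to 0.374, and in hippocampus Grm3 over -0.209 to 0.245 and Grm5 over -0.06 to 0.066. For curcumin in cortex at 12 weeks Grm4 ranged over -0.075 to 0.424, and at 6 weeks Grm2 over -0.071 to 0.49, Grm3 over -0.424 to 0.122, Grm5 over -0.147 to 0.346 and Grm8 over -0.098 to 0.393. In hippocampus at 12 weeks Grm3 ranged over -0.079 to 0.374, Grm5 over -0.014 to 0.025 and Grm7 over -0.264 to 0.03, and at 6 weeks Grm3 over -0.161 to 0.012, Grm4 over -0.308 to 0.195, Grm5 over -0.061 to 0.076 and Grm8 over -0.04 to 0.213. For the change with duration in hippocampus Grm3 ranged over -0.005 to 0.449, Grm4 over -0.069 to 0.434, Grm5 over -0.07 to 0.066, Grm7 over -0.202 to 0.092 and Grm8 over -0.032 to 0.263, and in cortex Grm5 over -0.489 to 0.005 and Grm7 over -0.086 to 0.032. For the tissue difference in the curcumin response Grm4 ranged over -0.298 to 0.201 at 12 weeks, and at 6 weeks Grm3 over -0.197 to 0.35, Grm5 over -0.339 to 0.155 and Grm8 over -0.307 to 0.184. A mean over several clusters of a gene could not be run, because each receptor gene had 1.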
